A study of Mus musculus with 12 samples.

Results

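Mitochondrial ribosomal protein genes were taken as the protein-coding genes whose symbol starts with Mrpl or Mrps followed by a digit, without pseudogene names and with at least 100 counts summed over the 12 libraries. The rule found 78 of the 52550 genes in the count table, 49 named for the large subunit (Mrpl) and 29 named for the small subunit (Mrps). In all counts and figures by subunit, the subunit was taken from the symbol alone, not from the place of the protein in the ribosome. All 78 genes of the family met the count minimum, the lowest being Mrpl53 with 378 counts, and all 78 passed the filter on low counts. RNA immunoprecipitation followed by sequencing (RIP-seq) pulls a protein down with an antibody and sequences the RNA that comes with it. The groups were retina anti-YTHDF1 IP, retina anti-YTHDF2 IP and retina input, and cortex anti-YTHDF1 IP, cortex anti-YTHDF2 IP and cortex input, with 2 libraries each. Retinas were from postnatal day 0 and cortices from embryonic day 12.5. All animals were wild-type C57BL/6 mice, so that no group carried an altered allele, and the input, RNA taken without an antibody, served as the background for each IP; no library with an unrelated antibody was analysed here. Whether a library came from 1 animal or a pool is not stated in the labels. With nothing to say that the libraries came from separate animals, p-values measure only the spread between these samples.

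The mitochondrial ribosome, or mitoribosome, makes the few proteins encoded by mitochondrial DNA, all of them parts of the respiratory chain and ATP synthase. Its protein components are encoded by nuclear genes, translated in the cytosol and imported, so that their mRNAs are cytosolic. YTHDF1 and YTHDF2 are cytosolic readers of the methyl mark m6A on adenosines of mRNA; YTHDF1 is known mainly for a link to translation and YTHDF2 for a link to mRNA decay.

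Library totals ran from 19530226 to 40515980 counts and protein-coding counts from 1676910 to 13621485, of which the 78 genes took 1633 to 33880. The library labelled cortex input replicate 1 went against its label: 4.65% of its counts were protein-coding, and its 10 mature brain markers summed to 16410 per 1000000 protein-coding counts, against 89.1 in cortex input replicate 2. The 10 cortex neuron and progenitor markers summed to 276 there, against 3003 to 5402 in the other 5 cortex libraries. In the 6 retina libraries the 10 retina markers were all detected and summed to 2056 to 2887. The cortex comparisons below are given with and without that library.

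The ends of the coding sequences of 6 members are shown because these 3 had the lowest and these 3 the highest fitted ratio of retina anti-YTHDF1 IP to input. Each run holds the last 150 coding bases, stop codon included, 5′ to 3′, read from GENCODE M21 transcripts on GRCm38. Capitals mark GGAC, a core of the sequence in which m6A is most often placed; it was searched on the transcript strand and does not overlap itself. The first 3 are the lowest members, Mrpl32 (chr13:14608184-14613165, minus strand), Mrpl42 (chr10:95480805-95501940, minus strand) and Mrpl33 (chr5:31596935-31664384, plus strand).
Mrpl32: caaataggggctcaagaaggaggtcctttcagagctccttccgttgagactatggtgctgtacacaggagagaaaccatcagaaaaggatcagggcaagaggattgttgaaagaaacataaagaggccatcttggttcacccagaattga
Mrpl42: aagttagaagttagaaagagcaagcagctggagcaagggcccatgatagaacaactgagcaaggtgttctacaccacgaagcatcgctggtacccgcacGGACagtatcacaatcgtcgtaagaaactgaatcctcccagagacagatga
Mrpl33: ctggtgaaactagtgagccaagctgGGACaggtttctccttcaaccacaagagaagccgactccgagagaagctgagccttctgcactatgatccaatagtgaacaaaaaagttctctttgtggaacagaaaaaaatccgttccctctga
The other 3 are the highest members, Mrps27 (chr13:99344786-99415562, plus strand), Mrpl12 (chr11:120484613-120489065, plus strand) and Mrps7 (chr11:115603925-115608036, plus strand).
Mrps27: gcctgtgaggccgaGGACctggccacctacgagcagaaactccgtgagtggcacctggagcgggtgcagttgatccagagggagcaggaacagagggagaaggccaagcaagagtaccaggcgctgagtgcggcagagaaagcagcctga
Mrpl12: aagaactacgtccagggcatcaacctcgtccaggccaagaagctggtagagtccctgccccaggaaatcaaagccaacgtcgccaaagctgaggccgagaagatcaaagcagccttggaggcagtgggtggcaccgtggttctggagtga
Mrps7: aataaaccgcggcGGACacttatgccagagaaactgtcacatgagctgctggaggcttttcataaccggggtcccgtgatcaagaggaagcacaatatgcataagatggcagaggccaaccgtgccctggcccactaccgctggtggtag
The GGAC core was in 2 of the 3 lowest and in 2 of the 3 highest stretches. Over all 78 members 53.8% held it in their last 150 coding bases, against 52.7% of 14169 protein-coding genes tested with a transcript. The stretches differed in base composition: GC content was 62.0% in Mrps27, 57.3% in Mrpl12 and 54.7% in Mrps7, and 46.0% in Mrpl32, 48.7% in Mrpl42 and 46.0% in Mrpl33. Whole spliced transcripts of the members were short, with a median of 1253 bases against 3008 bases over the protein-coding genes tested.

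The anti-YTHDF1 IP of retina was set against retina input. By edgeR's quasi-likelihood test with Benjamini-Hochberg adjustment over 18458 genes, 16 members fell and 1 rose at an adjusted p under 0.05. Over all genes tested, 8.8% were called, 5.23% lower and 3.57% higher. An unadjusted p under 0.05 was reached by 36 members (46.2%), against 26.8% of all genes. The 16 were 11 genes with Mrpl names (Mrpl1, Mrpl20, Mrpl21, Mrpl23, Mrpl24, Mrpl30, Mrpl32, Mrpl33, Mrpl42, Mrpl47 and Mrpl48) and 5 with Mrps names (Mrps18c, Mrps21, Mrps25, Mrps33 and Mrps36). The median log2 fold change was -0.95 over the 78 members, against 0.00 over all genes and 0.13 over protein-coding genes, and 60 of 78 members were below 0. In 49 members both IP libraries lay below both inputs, and in 12 both lay above, where all genes gave 30.1% and 31.4%.

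**Figure D1:**
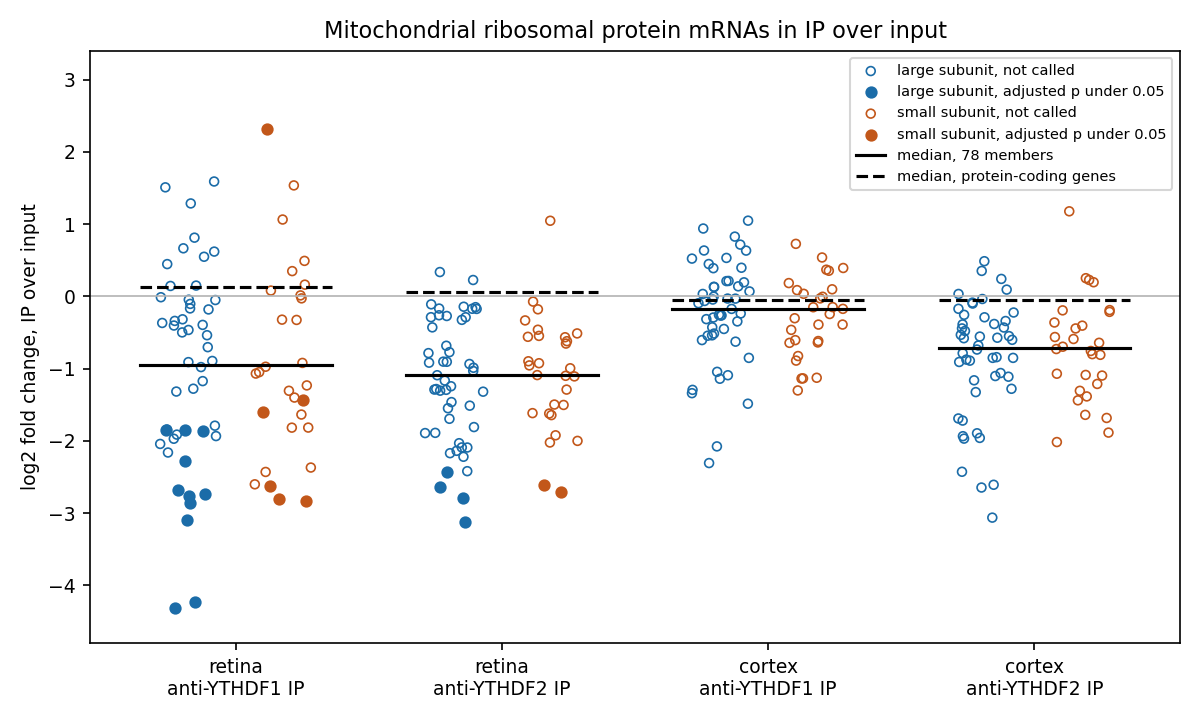
Log2 fold change of each of the 78 mitochondrial ribosomal protein genes in IP over input (y axis), for the 4 IP comparisons (x axis); blue points are large-subunit and orange points small-subunit genes, filled where the adjusted p is under 0.05. The members' median (solid line) lies at -0.95, -1.09, -0.17 and -0.71, below the protein-coding median (dashed line) in each comparison, and filled points occur only in retina.

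Mrpl42, a large-subunit protein, had the highest count of the members in each retina input, without regard to length. In counts per 1000000 of the TMM-scaled library (CPM), it had 2.12 and 2.08 CPM in retina anti-YTHDF1 IP, against 34.1 and 44.5 CPM in retina input. The groups lay far apart with close replicates, and the gene was 18.7-fold lower (log2 fold change -4.22, SE 0.47, adjusted p = 0.0115). Mrpl32, a large-subunit protein whose maturation by the mitochondrial m-AAA protease is a step of mitoribosome assembly, had 0.483 and 0.491 CPM in retina anti-YTHDF1 IP, against 10.8 and 8.66 CPM in retina input. These IP values are 15 and 13 counts, against 312 and 246 counts in input, and the log2 fold change was -4.32 (SE 0.75, adjusted p = 0.0135).

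Mrpl33, among the smallest proteins of the large subunit, had 1.16 and 1.25 CPM in retina anti-YTHDF1 IP and 10.95 and 9.64 CPM in retina input (log2 fold change -3.10, SE 0.60, adjusted p = 0.0173). Mrps21, a small protein of the small subunit, had 2.54 and 1.47 CPM in retina anti-YTHDF1 IP and 12.8 and 11.9 CPM in retina input (log2 fold change -2.62, SE 0.49, adjusted p = 0.0159). For both genes each IP library was below each input library by several fold. The other falls included Mrpl20 (-2.68, SE 0.55) and Mrpl23 (-2.27, SE 0.46), the second a protein at the peptide exit tunnel, both at an adjusted p of 0.0196.

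Several of the 16 are proteins with a known particular place or another known role. Mrpl1, part of the mobile stalk at the tRNA exit side, fell by 2.76 on the log2 scale (SE 0.69, adjusted p = 0.0332). Mrps18c, one of the small-subunit homologues of a single bacterial protein, fell by 2.83 (SE 0.56, adjusted p = 0.0189). Mrps36, a member by its symbol alone, is now known as a subunit of the alpha-ketoglutarate dehydrogenase complex. It fell by 2.80 (SE 0.59, adjusted p = 0.0215). The gentlest of the 16 falls was that of Mrps25, -1.44 (SE 0.39, adjusted p = 0.0436), with 3.22 and 3.14 CPM in retina anti-YTHDF1 IP and 8.24 and 9.01 CPM in retina input.

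Mrps27, a small-subunit protein of the pentatricopeptide-repeat family, was the only member called higher in the anti-YTHDF1 IP, of 18 fitted above 0. It had 8.17 and 7.37 CPM in retina anti-YTHDF1 IP, against 1.95 and 1.16 CPM in retina input, from 254 and 195 against 56 and 33 counts. The gene was 4.99-fold higher (log2 fold change 2.32, SE 0.47, adjusted p = 0.0193). Its mean over these libraries was under the 5 CPM used for naming genes, and it is named because its values were seen.

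The next members in order did not pass the test, although their groups lay apart. Mrpl12, the stalk protein that contacts translation factors and also binds the mitochondrial RNA polymerase, had 19.5 and 18.9 CPM in retina anti-YTHDF1 IP and 7.89 and 4.86 CPM in retina input (log2 fold change 1.59, SE 0.50, adjusted p = 0.0698). Mrps7, a protein of the small-subunit head, had 17.4 and 16.2 CPM in retina anti-YTHDF1 IP and 7.996 and 3.59 CPM in retina input (1.54, SE 0.49, adjusted p = 0.0717). In both genes each IP library lay above each input library. Mrpl41, a large-subunit protein, had 9.88 and 7.37 CPM in retina anti-YTHDF1 IP and 2.71 and 3.34 CPM in retina input (1.51, SE 0.50, adjusted p = 0.0813). Mrpl17, a protein near the exit tunnel, had 8.56 and 9.98 CPM in retina anti-YTHDF1 IP and 3.58 and 4.01 CPM in retina input (1.29, SE 0.41, adjusted p = 0.0739). These groups did not overlap either. Exons of Mrps7 overlap exons of Gga3 and Mif4gd on the opposite strand, those of Mrps25 overlap Nr2c2 and those of Mrps27 overlap 6430562O15Rik. Among the other members called lower, Mrpl21 (Ighmbp2), Mrpl24 (Rrnad1), Mrpl47 (Actl6a and Ndufb5) and Mrpl48 (Rab6a) have such overlaps on the opposite strand. Mrps18c has one on the same strand (Gm43511). Of members named further below, Mrpl43 overlaps Twnk and Mrpl18 overlaps Tcp1, both on the opposite strand. The strand setting used for counting is not given in the sources used here. Values of members with such overlaps may hold reads of the other gene or lack reads that both genes share.

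All 17 calls were also made without the library that went against its label. In that fit 33 members fell and 5 rose in the anti-YTHDF1 IP, where 13.4% of all genes fell and 13.7% rose; the 5 were Mrpl12, Mrpl17, Mrpl41, Mrps7 and Mrps27. Leaving out either retina anti-YTHDF1 IP library ended all 17 calls, and leaving out either retina input kept 2 of them, with no change of sign among the 17. Without either retina anti-YTHDF2 IP 7 of the 17 were kept, without cortex anti-YTHDF1 IP replicate 2 or cortex anti-YTHDF2 IP replicate 1 10 were, and without cortex input replicate 2 37 members fell and 5 rose (16.0% and 10.3% of all genes). Scaling to library totals and limma on FPKM each left 0 calls, at member medians of -0.91 and -0.38 with all genes at 0.00 in both. The loss was not limited to the members. An unadjusted p under 0.05 was then reached by 1279 (edgeR) and 1191 (limma) of 18458 genes, against 4944 in the main fit. With the replicate number as a block, 9 members fell and 1 rose (2.64% and 1.01% of all genes). Several counts with 1 library left out stand without a share of all genes, here and for anti-YTHDF2 below. Such counts cannot be read as results about the members.

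**Figure D2:**
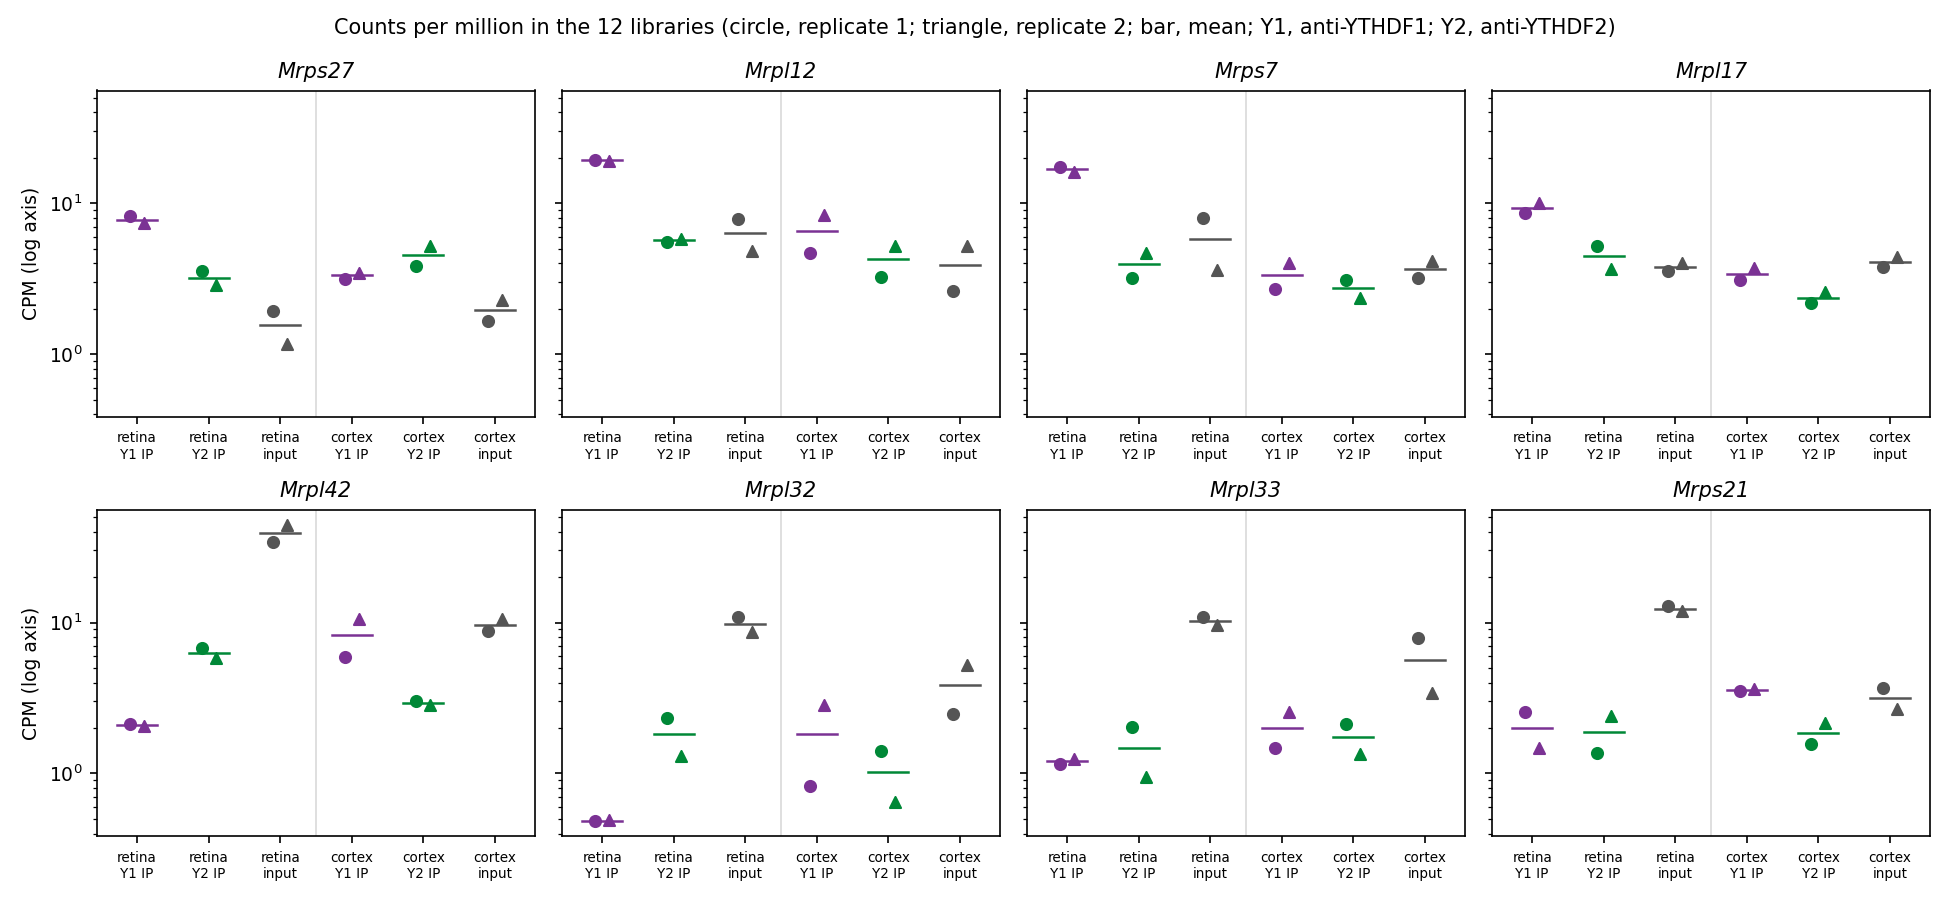
CPM (y axis, log scale) of 8 members in each of the 12 libraries (x axis, by group); circles are replicate 1, triangles replicate 2 and bars the mean of 2 libraries. In the top row Mrps27, Mrpl12, Mrps7 and Mrpl17 sit highest in retina anti-YTHDF1 IP, and in the bottom row Mrpl42, Mrpl32, Mrpl33 and Mrps21 sit highest in retina input.

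In the anti-YTHDF2 IP of retina nearly the whole family was fitted below input. There 6 members fell, Mrpl20, Mrpl30, Mrpl33, Mrpl42, Mrps21 and Mrps36, and none rose; over all genes 2.04% were called, 1.76% lower and 0.282% higher. The median log2 fold change was -1.09, against 0.00 over all genes and 0.07 over protein-coding genes, and 75 of 78 members were below 0. For 56 members both IP libraries lay below both inputs, against 25.9% of all genes, and for 2 both lay above, against 26.9%. The unadjusted p was under 0.05 for 30 members (38.5%), against 16.5% of all genes. DESeq2 called 21 lower (5.73% of all genes) and 0 higher (2.83% of all genes).

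Mrpl20 had 0.961 and 1.52 CPM in retina anti-YTHDF2 IP, against 10.2 and 11.6 CPM in retina input, which is -3.13 on the log2 scale (SE 0.56, adjusted p = 0.0209). Mrpl42 had 6.77 and 5.83 CPM in retina anti-YTHDF2 IP, against 34.1 and 44.5 CPM in retina input (-2.64, SE 0.44, adjusted p = 0.0163). Mrpl33 and Mrps21 changed by -2.79 (SE 0.60, adjusted p = 0.0378) and -2.71 (SE 0.50, adjusted p = 0.0227). Each of these genes was several fold lower in both IP libraries than in either input. Mrpl32, the lowest member with the other antibody, was at -2.42 (SE 0.68) and did not pass (adjusted p = 0.0991).

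All 6 members that fell in the anti-YTHDF2 IP were among the 16 that fell in the anti-YTHDF1 IP, which is 100% of the first list and 37.5% of the second. Both comparisons share the 2 retina inputs, so this count is not independent of them. By fitted direction 60 members were lower in both IPs, 15 were higher than input with anti-YTHDF1 and lower with anti-YTHDF2, and 3 were higher in both. Without the library labelled cortex input replicate 1, 30 members fell in the anti-YTHDF2 IP, where 7.64% of all genes fell; without cortex input replicate 2 32 fell (8.26% of all genes). Leaving out any 1 retina library, scaling to library totals and limma on FPKM each left 0 calls (member medians -0.85 by library totals and -0.41 by limma, with all genes at 0.13 and 0.01), and the replicate block left 2, Mrpl20 and Mrpl42 (0.954% of all genes). Without cortex anti-YTHDF1 IP replicate 2 2 of the 6 calls were kept, and without cortex anti-YTHDF2 IP replicate 1 3 were.

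Spliced length moved with these values. The shortest members were Mrpl52 (418 bases), Mrpl33 (478) and Mrps21 (488), and the longest Mrpl19 (5000), Mrps25 (6073) and Mrpl17 (7300). Over the 78 members the anti-YTHDF2 fold change had a Spearman correlation of 0.54 with spliced length, against 0.43 over the protein-coding genes tested; both describe genes that share libraries and are not independent. The 3 members under 500 bases had a median of -2.71, and the protein-coding genes of that class -2.17. In the class of 500 to 1000 bases 23 members had a median of -1.62, against -1.73. The 22 members of 1000 to 1500 bases were at -1.13, against -0.70, and the 10 members of 1500 to 2500 bases at -0.67, against -0.17. Members between 2500 and 4000 bases (12 genes) were at -0.86, where protein-coding genes were at 0.20, and the 8 members over 4000 bases at -0.39, against 0.53.

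With anti-YTHDF1 the order by length was different. The Spearman correlation was 0.15 over members and 0.34 over protein-coding genes. Members between 500 and 1000 bases had a median of -1.07, against -1.69 in protein-coding genes of that length, and those between 1000 and 1500 bases -0.24, against -0.64. Those between 1500 and 2500 bases were at -0.09, against -0.06. Members between 2500 and 4000 bases were at -1.38, against 0.30, and members over 4000 bases at -1.20, against 0.65. The 3 members under 500 bases were at -2.62, against -2.13. Members of 500 to 1500 bases thus lay above the median of their length class, and members over 2500 bases and under 500 bases below it. The part of length in the calls was not tested.

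**Figure D3:**
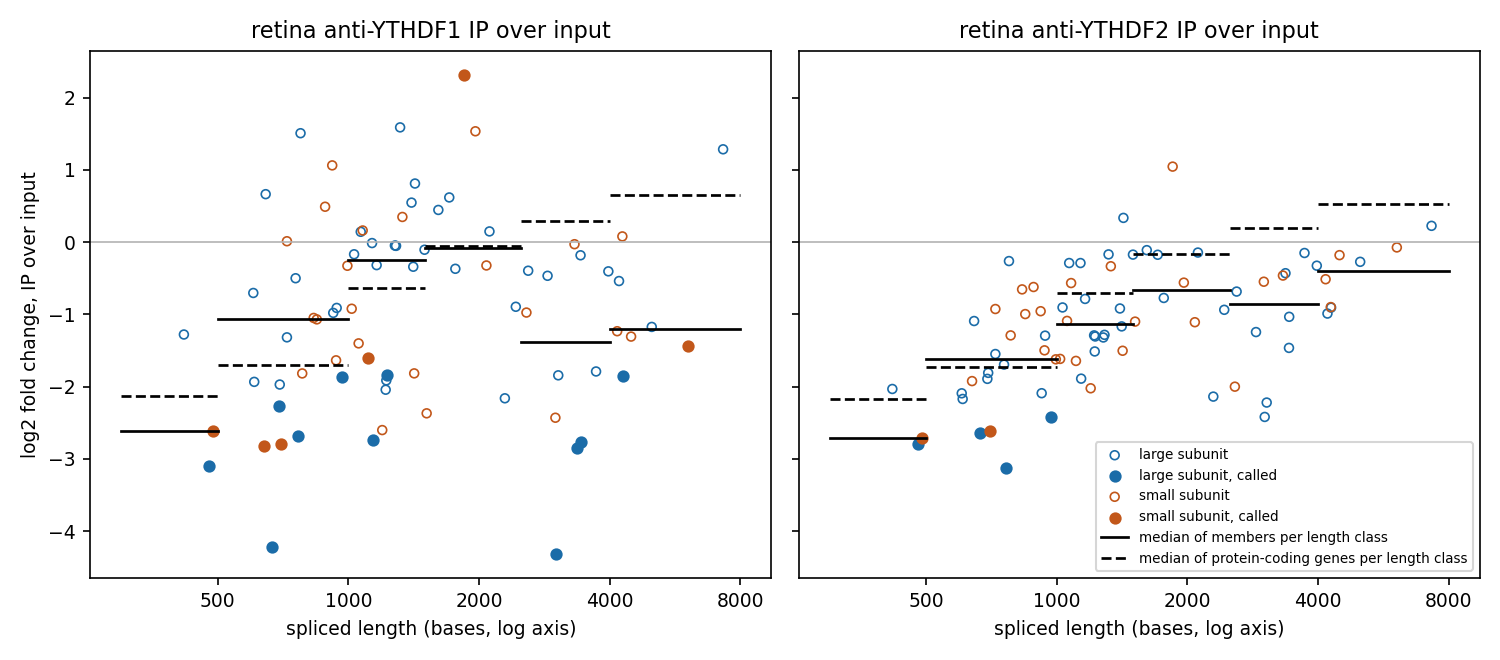
Log2 fold change in IP over retina input (y axis) of the 78 members by spliced length in bases (x axis, log scale), for anti-YTHDF1 (left) and anti-YTHDF2 (right); blue is large and orange small subunit, filled where the adjusted p is under 0.05. Solid lines are medians of members and dashed lines medians of protein-coding genes in 6 length classes; over 4000 bases the solid line lies at -1.20 and -0.39 and the dashed line at 0.65 and 0.53.

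The direct comparison of the antibodies in retina called no member by edgeR (0 of 18458 genes were called, 0%). Its median was 0.33, against 0.02 over all genes, the unadjusted p was under 0.05 for 19 members and 2211 of 18458 genes. DESeq2 called 3 members higher (Mrpl12, Mrpl41 and Mrps7) and 3 lower (Mrpl42, Mrpl47 and Mrps25) in the anti-YTHDF1 IP, where 0.764% of all genes were higher and 2.83% lower. The groups did not overlap in 39 members higher and 18 lower with anti-YTHDF1, against 32.6% and 25.4% of all genes. Mrps7 had 17.4 and 16.2 CPM in retina anti-YTHDF1 IP and 3.19 and 4.68 CPM in retina anti-YTHDF2 IP, a log2 difference of 2.10 (SE 0.50, edgeR adjusted p = 0.16). Mrpl12 had 19.5 and 18.9 CPM against 5.51 and 5.83 CPM in the same order (1.76, SE 0.50, adjusted p = 0.215). In both genes the groups did not overlap. At the other end Mrps25 had 3.22 and 3.14 CPM in retina anti-YTHDF1 IP and 7.68 and 8.72 CPM in retina anti-YTHDF2 IP (-1.37, SE 0.39, adjusted p = 0.215), and Mrps5, a small-subunit protein, had 3.86 and 3.74 CPM and 8.999 and 7.62 CPM (-1.13, SE 0.54, adjusted p = 0.437).

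Without the library labelled cortex input replicate 1, edgeR called 5 members higher in the anti-YTHDF1 IP than in the anti-YTHDF2 IP, Mrpl12, Mrpl41, Mrpl43, Mrpl51 and Mrps7, where 2.14% of all genes were higher. It called 4 lower, Mrpl42, Mrpl47, Mrps25 and Mrps5, where 3.88% of all genes were lower. GC content moved with the difference between the antibodies: its Spearman correlation with GC was 0.51 over the 78 members and 0.40 over protein-coding genes. The 17 members with a GC content of 55% and over had a median of 0.94, with 15 above 0, against 0.52 in protein-coding genes of that class. The 23 members between 50% and 55% had a median of 0.48, with 16 above 0, against 0.32. The 27 members between 45% and 50% had a median of -0.19, with 11 above 0, against 0.00. The lowest class did not follow this order among members: the 11 under 45% had a median of 0.05, with 6 above 0, against -0.55. These GC classes were chosen after the values were seen.

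**Figure D4:**
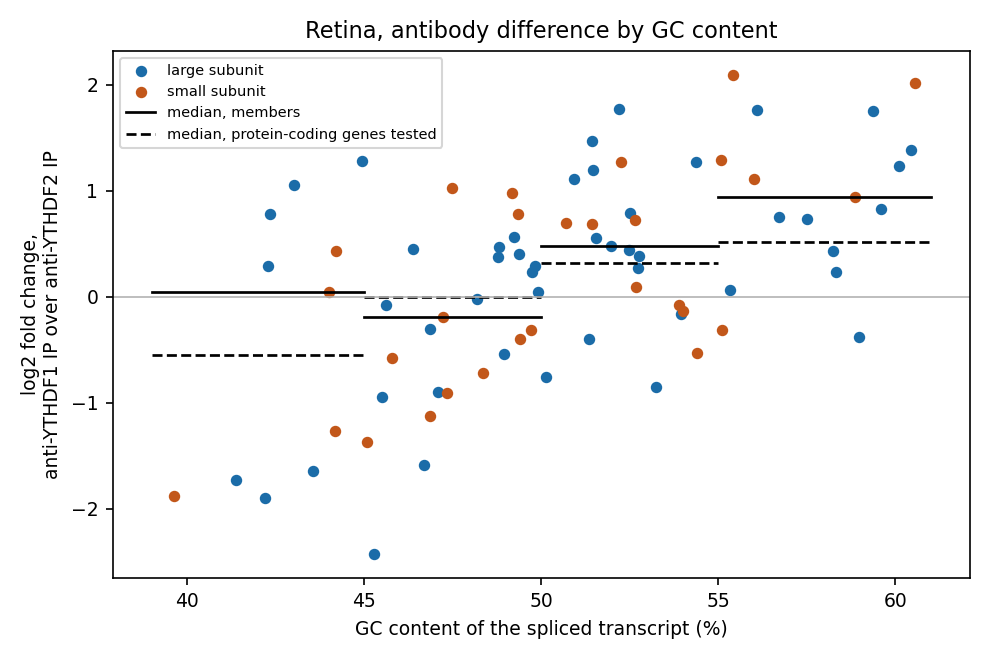
Log2 fold change of retina anti-YTHDF1 IP over retina anti-YTHDF2 IP (y axis) of the 78 members by GC content of the spliced transcript in percent (x axis); blue is large and orange small subunit. Solid lines are medians of members and dashed lines medians of protein-coding genes per GC class, 0.94 and 0.52 in the class of 55% and over.

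In cortex no member was called against input with either antibody by edgeR. For anti-YTHDF1, 0.00542% of all genes were called in either direction. The members' median was -0.17, against 0.00 over all genes, and 50 of 78 were below 0. The unadjusted p was under 0.05 for 6 members (15.6% of all genes). DESeq2 called 0 members, where 2.36% of all genes were higher and 4.94% lower. Both IP libraries lay below both inputs in 13 members and above in 5, against 14.3% and 21.1% of all genes. For anti-YTHDF2, 0.0108% of all genes were called; the median was -0.71, against 0.04 over all genes, 69 of 78 were below 0, the unadjusted p was under 0.05 for 20 (19.3% of all genes) and DESeq2 called 13 lower (7.92% of all genes). The IP libraries lay below the inputs in 38 members and above in 2, against 17.4% and 27.0% of all genes. Scaled to library totals, the medians were -0.96 for anti-YTHDF1 and -0.16 for anti-YTHDF2, with all genes at -0.58 and 0.72. By limma on FPKM the anti-YTHDF2 median was 0.13, with all genes at 0.34. Mrpl42 had 3.03 and 2.83 CPM in cortex anti-YTHDF2 IP, against 8.78 and 10.5 CPM in cortex input (-1.72, SE 0.43, adjusted p = 0.0907). Both IP values lay below both inputs. In cortex anti-YTHDF1 IP the same gene had 5.91 and 10.5 CPM, which overlapped the inputs (-0.24, SE 0.42, adjusted p = 0.847).

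With cortex input replicate 2 as the only input, which was assumed to vary like the other groups, the medians were -0.46 for anti-YTHDF1 and -0.98 for anti-YTHDF2. Then 4 members fell with anti-YTHDF1 (Mrpl18, Mrpl39, Mrps5 and Mrps22; 2.17% of all genes fell) and 16 with anti-YTHDF2 (5% of all genes). Without cortex input replicate 2 instead, the anti-YTHDF1 median was 0.38, against 0.61 over all genes, and 3 members were higher and 3 lower (14.0% and 11.1% of all genes); the anti-YTHDF2 median was -0.18, against 0.82 over all genes, with 2 higher and 6 lower (16.3% and 11.9%). Mrpl39 had 1.81 and 5.59 CPM in cortex anti-YTHDF1 IP, against 3.44 and 14.8 CPM in cortex input, so that the groups overlapped and the inputs lay further apart than the IPs. Mrpl12 had 4.71 and 8.42 CPM in cortex anti-YTHDF1 IP, against 2.61 and 5.18 CPM in cortex input (0.72, SE 0.50, adjusted p = 0.534), and its value changed sign when scaled to library totals (-0.22).

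No member was called between the antibodies in cortex by edgeR (0% of all genes called): the median of anti-YTHDF1 over anti-YTHDF2 was 0.52, against -0.06 over all genes, and turned to -0.39 by limma on FPKM, with all genes at -0.46, and to -0.81 when scaled to library totals, with all genes at -1.33. The unadjusted p was under 0.05 for 10 members (4.0% of all genes). DESeq2 called 0 members, where 0.358% of all genes were higher and 0.0325% lower. Anti-YTHDF1 libraries lay above both anti-YTHDF2 libraries in 41 members and below in 7, against 19.7% and 22.0% of all genes. Mrpl42 had the largest difference among the members named by the rule, 5.91 and 10.5 CPM in cortex anti-YTHDF1 IP and 3.03 and 2.83 CPM in cortex anti-YTHDF2 IP (1.48, SE 0.42, adjusted p = 0.968). Without the library labelled cortex input replicate 1 the median was 0.49 and 0 members were called. In retina Mrpl42 was at -1.58 in the same comparison (SE 0.43, adjusted p = 0.192).

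No member was called when the enrichment in retina was set against that in cortex by edgeR. For anti-YTHDF1, 0.00542% of all genes were called; the members' median difference was -0.51 against -0.08 over all genes, the unadjusted p was under 0.05 for 18 members (16.6% of all genes) and DESeq2 called 8 lower (3.49% of all genes). Mrpl42 differed by -3.99 (SE 0.61, adjusted p = 0.0703), Mrpl32 by -3.18 (SE 0.96, adjusted p = 0.174), Mrps36 by -2.89 (SE 0.81, adjusted p = 0.162) and Mrps21 by -2.80 (SE 0.68, adjusted p = 0.14). Without the library labelled cortex input replicate 1, Mrpl20, Mrpl42 and Mrps21 were called lower, where 2.41% of all genes were; without cortex input replicate 2, 26 members were lower, where 16.9% of all genes were. The median turned to 0.25 when scaled to library totals, with all genes at 0.58. For anti-YTHDF2, 0.0325% of all genes were called. The members' median was -0.26 against -0.13 over all genes, and 3 members had an unadjusted p under 0.05 (11.3% of all genes). DESeq2 called 0 members, where 1.4% of all genes were higher and 1.04% lower. Without the library labelled cortex input replicate 1 Mrpl18 was called higher (0.444% of all genes), and without cortex input replicate 2 11 members were lower (14.0% of all genes).

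The inputs themselves differed. In retina input 5 members were higher than in cortex input, Mrpl23, Mrpl30, Mrpl42, Mrps21 and Mrps36, and none was lower; over all genes 7.52% were called, 3.51% higher and 4.01% lower. Both retina inputs lay above both cortex inputs in 46 members and below in 1, against 24.2% and 18.4% of all genes. All 5 were among the members that fell in the retina anti-YTHDF1 IP, but both comparisons use the same 2 retina inputs, on opposite sides of the ratio, so this count is not independent of them. Mrpl42 had 34.1 and 44.5 CPM in retina input and 8.78 and 10.5 CPM in cortex input (2.02, SE 0.43, adjusted p = 0.0194), and Mrpl23 had 10.2 and 7.88 CPM in retina input and 2.02 and 1.96 CPM in cortex input (2.18, SE 0.47, adjusted p = 0.0203). For both genes each retina library was several fold above each cortex library. The median of members was 0.81, against -0.15 over all genes; scaled to library totals it was -0.42, with all genes at -1.17. Without the library labelled cortex input replicate 1, 10 members were higher, where 8.82% of all genes were, and 1 was lower, Mrpl18, where 11.1% of all genes were. Without cortex input replicate 2, 36 were higher, where 17.0% of all genes were. The replicate block left 0 higher, where 1.33% of all genes were higher. Library totals and limma on FPKM also left 0 higher, but shares of all genes are not given for them. Tissue and age differ together in this comparison and cannot be told apart, and in bulk tissue fewer cells of a type and less RNA per cell cannot be told apart.

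Summed over the 78 genes, the family took 2378 and 2396 of every 1000000 protein-coding counts in retina anti-YTHDF1 IP and 1976 and 2079 in retina anti-YTHDF2 IP, against 3905 and 3016 in retina input. All 4 IP libraries were below both inputs. In cortex the sums were 1349 and 2161 in anti-YTHDF1 IP and 1416 and 1373 in anti-YTHDF2 IP, against 974 and 2487 in input, so that the groups overlapped. The 974 is the library labelled cortex input replicate 1.

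**Figure D5:**
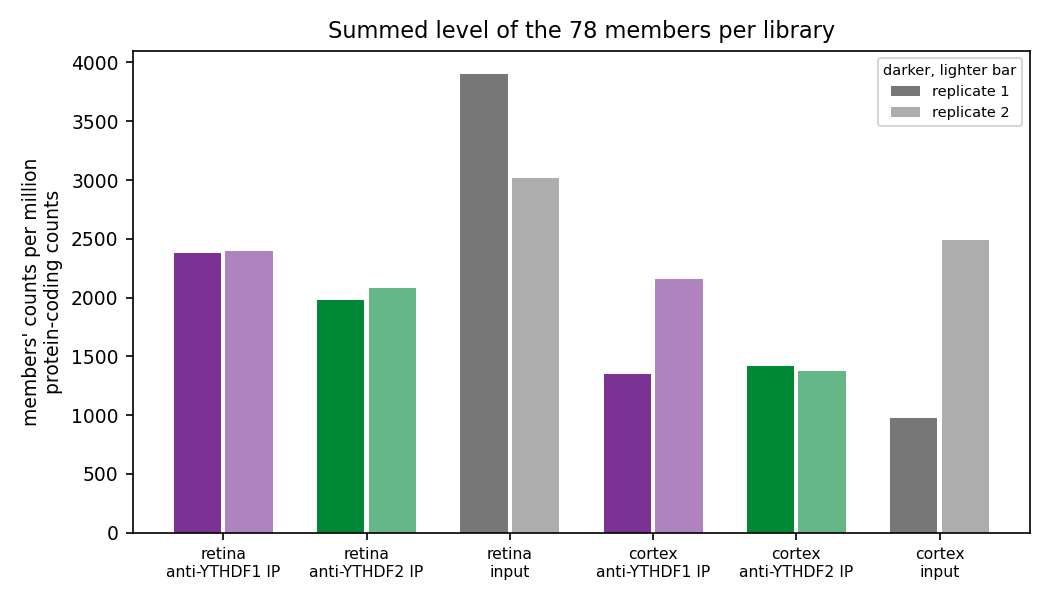
Summed counts of the 78 members per 1000000 protein-coding counts (y axis) in each library (x axis, by group; darker bar replicate 1, lighter bar replicate 2). In retina the IP bars end between 1976 and 2396 and the input bars at 3905 and 3016; in cortex the input bars end at 974 and 2487.

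Levels were compared between genes per length, as FPKM, the authors' length-scaled value. The highest mean over the 4 inputs was that of Mrpl18 at 16.7 FPKM, but this rested on cortex input replicate 2 at 59.1 FPKM, where the retina inputs had 3.81 and 3.67 FPKM. Exons of Mrpl18 overlap those of Tcp1 on the opposite strand, so its values may hold reads of Tcp1 or lack shared reads. Mrpl34 followed with 21.2 and 9.29 FPKM in retina input, and Mrps21 with 12.02 and 12.1 FPKM. The median member had 1.86 and 1.21 FPKM in the retina inputs, and 0.890 and 0.889 FPKM in retina anti-YTHDF1 IP. In that IP Mrpl12 was the highest member, with 9.31 and 9.12 FPKM.

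Other nuclear genes of mitochondrial translation, and factors of mitochondrial biogenesis, had medians nearer to 0 or above it in retina. Transcript length and GC content of these lists were not compared with those of the members. One list of 22 genes held mitochondrial aminoacyl-tRNA synthetases and the amidotransferase subunits Qrsl1, Gatb and Gatc. Its synthetases include Gars and Kars, which also serve the cytosol. The median log2 fold change of the 22 was 0.81 in anti-YTHDF1 IP over input and 0.43 in anti-YTHDF2 IP over input. Over 30 assembly and rRNA modification genes it was 0.58 and 0.20. The medians were 0.79 and 0.28 over 12 biogenesis factors and -0.24 and -0.01 over 15 translation factors. In the anti-YTHDF1 IP 2 assembly genes rose: Dhx30, an RNA helicase, had 35.1 and 27.2 CPM in IP and 10.2 and 7.81 CPM in input (1.79, SE 0.42, adjusted p = 0.0274), and Afg3l2, a subunit of the m-AAA protease, had 10.3 and 8.84 CPM in IP and 3.41 and 2.78 CPM in input (1.63, SE 0.40, adjusted p = 0.0303). Among the biogenesis factors Polrmt, the mitochondrial RNA polymerase, rose with 5.60 and 4.65 CPM in IP and 1.32 and 1.44 CPM in input (1.89, SE 0.51, adjusted p = 0.0424). Among the translation factors Slirp, which partners Lrpprc in stabilising mitochondrial mRNAs, fell with 1.67 and 0.794 CPM in IP and 6.95 and 9.01 CPM in input (-2.69, SE 0.69, adjusted p = 0.0356). One synthetase, Lars2, was called higher with 69238 and 4143 counts in IP and 58 and 80 counts in input, and its IP libraries stood far apart (8.94, SE 1.80, adjusted p = 0.0192).

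Lower medians than that of the members were found in a pair of other lists. Cytosolic ribosomal protein mRNAs (80 tested) had a median of -2.50 in retina anti-YTHDF1 IP over input and -2.51 in anti-YTHDF2 IP over input. Of these 80, 55 and 44 were called lower, against 5.23% and 1.76% of all genes. The 13 mRNAs of mitochondrial DNA had medians of -6.67 and -5.28, with 13 and 7 called lower, against the same shares of all genes. A list of 6 genes for mitoribosomal proteins with other names had medians of -0.19 and -0.79 and none called. It held Dap3, Chchd1, Ptcd3, Aurkaip1, Gadd45gip1 and Oxa1l, the last a membrane insertase and not a ribosomal protein. With each antibody 2 of the 6, Dap3 and Oxa1l, were fitted above 0. Of the cell type markers, the 5 endothelial genes summed to 1258 and 1284 per 1000000 protein-coding counts in retina anti-YTHDF1 IP. They summed to 752 and 778 in retina anti-YTHDF2 IP, against 275 and 268 in retina input. The rise was not shared by all 5. Pecam1 was at 0 in retina anti-YTHDF1 IP replicate 2 and in both retina anti-YTHDF2 IPs, while no endothelial gene was at 0 in either retina input. The 7 erythroid genes were at 1.36 to 8.07 in all 6 retina libraries, with 4 or 5 of the 7 at 0. The part of these markers in the results was not tested.

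Log2 CPM of 6149 genes at 5 CPM or more was correlated with the members' mean over the 12 libraries. The non-members with the highest Pearson correlation were Eif3h (0.97), Ostc (0.97), Tagln2 (0.96), Clic1 (0.96) and Eif3k (0.95). Points share 6 groups, and the correlations are given as a description.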

How the data were processed

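RIP-seq of retina and cortex gave 12 libraries in 6 groups of 2. Per the submitters' processing notes, reads were mapped with STAR 2.5 to GRCm38 and counted with HTSeq. The sources used here do not state the strand setting or annotation release. The authors deposited raw read counts and FPKM per gene; which gene length entered the FPKM is unstated. Gene models, lengths and coordinates came from GENCODE M21 (GRCm38), which matched 52403 of 52550 table genes. With edgeR 4.0.16 and limma 3.58.1 (R 4.3.3), 18458 genes passed filterByExpr (minimum count 10, minimum total 15), 14199 of them protein-coding; a quasi-likelihood model over all 12 libraries (TMM scaling, 6 residual degrees of freedom) gave 9 comparisons, two-sided, adjusted by Benjamini-Hochberg over all genes and called under 0.05. CPM are TMM-scaled, and SE is the log2 fold change over the root of F. DESeq2 1.42.0, other scalings, no filter, limma on log2(FPKM + 1), 1 tissue alone, a replicate block and leaving out each library were alternatives. The pairing of libraries by replicate number comes from the series design, in which each replicate holds its input and IPs; deviations of same-numbered libraries correlated at -0.03 to 0.06. Named members were drawn from the 6 highest and 6 lowest per IP comparison (3 and 3 in the others) with a mean of at least 5 CPM and both replicate numbers moving one way, all called members where 5 or fewer were called, the 5 highest by FPKM in inputs, and the 3 longest and shortest; others were named after their values were seen. Members and lists were chosen with earlier results of these data known. Of 5 relatives with similar names outside the rule, total counts were 561 against 129352 for the members. In all, 25 members have exons that overlap another gene's exons on the opposite strand and 6 on the same strand. The test was checked on simulated counts. Library totals ran from 19530226 to 40515980 counts.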

Additional observations from a re-analysis of the deposited data

How the results depend on the processing

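The direction of the members' median over input in retina was negative under every alternative run, and of the 17 members called with anti-YTHDF1 and 6 with anti-YTHDF2 none changed sign. In the first comparison (16 lower, 1 higher) the counts were 0 and 0 with library totals, 27 and 5 with DESeq2 (11.5% and 7.96% of all genes), 0 and 0 with limma on FPKM, and 36 and 5 with retina libraries alone (20.3% and 17.3%). In the second (6 lower) they were 0 with library totals, 0 with limma on FPKM, 10 without the filter (2.31% of all genes), 21 with DESeq2 (5.73%) and 31 with retina libraries alone (10.7%). The replicate block gave 9 lower with anti-YTHDF1 (2.64% of all genes) and 2 lower with anti-YTHDF2 (0.954%). It gave 0 higher between the inputs (1.33%) and changed no other count. In cortex the filter-free fit called 1 lower with anti-YTHDF1 (2.81% of all genes) and 2 with anti-YTHDF2 (3.37%), and DESeq2 called 13 with anti-YTHDF2 (7.92%). Between the antibodies in retina, DESeq2 called 3 higher and 3 lower (0.764% and 2.83%) and retina libraries alone 4 higher and 7 lower (2.57% and 6.56%). For the anti-YTHDF1 tissue difference, 1 was lower without the filter (1.36%) and 8 with DESeq2 (3.49%). Between the inputs, library totals and limma on FPKM left 0 higher and DESeq2 gave 14 (7.93%). Leaving out 1 library, the retina counts ranged from 0 to 37 lower and 0 to 5 higher with anti-YTHDF1, from 0 to 32 lower with anti-YTHDF2, and from 0 to 5 higher and 0 to 5 lower between antibodies. In cortex they ranged from 0 to 4 lower and 0 to 3 higher with anti-YTHDF1 and from 0 to 16 lower and 0 to 2 higher with anti-YTHDF2. Tissue differences ranged from 0 to 26 lower with anti-YTHDF1 and from 0 to 11 lower and 0 to 1 higher with anti-YTHDF2, and the inputs from 0 to 36 higher and 0 to 1 lower. Where a count of members called stands without a share of all genes, here or above, it cannot be set against the change over all genes. The causes were not tested. Signs turned for values that had not passed the test. In cortex over input, Mrpl51 was -0.26 with anti-YTHDF1 (from -0.74 to 0.19 with 1 library left out) and -0.44 with anti-YTHDF2 (from -0.81 to 0.11 likewise, 0.050 with library totals, 0.45 with limma on FPKM). Mrps25 with anti-YTHDF2 was -1.07, and 0.10 with limma; Mrpl12 with anti-YTHDF1 was 0.72, and -0.22 with library totals. Between antibodies in cortex, Mrpl12 was 0.62 (-0.84 with library totals, -0.56 with limma), Mrps5 0.27 (-1.02 and -0.56) and Mrpl50 -0.40 (from -0.84 to 0.14 with 1 library left out). In the anti-YTHDF2 tissue difference Mrpl48 was 0.99 (-0.073 with library totals, -0.13 with limma) and Mrps25 1.00 (-0.053 with limma). The library labelled cortex input replicate 1 had a median of 16 counts per member; what depth and its markers contributed to the cortex results was not tested.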
